A study of Mus musculus with 14 samples.

Results

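Cd28, Ctla4 and Icos are neighbouring genes on mouse chromosome 1 that encode the costimulatory and inhibitory receptors of the CD28 family, and the accessibility of their chromatin was described here region by region in cTregs and eTregs with or without Atg14. A region of the ATAC-seq count table was taken as a member if its midpoint lay within a gene body of the trio or had one of the trio as its nearest protein-coding transcription start. This gave 74 of 67254 regions, 16 assigned to Cd28, 24 to Ctla4 and 34 to Icos, which spanned 628 kb (GRCm38, chr1:60670270-61298246). ATAC-seq counts how often a transposase cuts into open DNA, so a region with more reads was more accessible. Accessibility is given as counts scaled to a library total of 1000000 (CPM).

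The libraries came from CD45.2+ splenic Tregs of mixed bone marrow (BM) chimeras, in which donor marrow and CD45.1+ wild-type marrow had rebuilt the immune system of sublethally irradiated Rag1-/- mice, hosts without T and B cells of their own, over 6 to 8 weeks. All groups carried Foxp3Cre, which is active in Tregs. Controls were Foxp3CreAtg14+/fl and so kept an intact Atg14 allele, and Atg14-deficient cells were Foxp3CreAtg14fl/fl. Atg14 is a subunit of the Vps34 complex that starts autophagy. CD4+Foxp3-YFP+ cells were sorted by surface markers as CD44- cTregs or CD44+ eTregs, with 3 control and 4 Atg14-deficient libraries of each population. The study describes 3 control and 4 Atg14-deficient chimeras for these sorts, but the labels do not tie libraries to single animals, so the p-values measure the spread between these libraries. The labels do not give the ages of donors or hosts.

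CD28 binds CD80 and CD86 on antigen-presenting cells and adds a second signal to that of the T cell receptor. CTLA-4 binds the same ligands more tightly and removes them from antigen-presenting cells, a main means of suppression by Tregs. ICOS binds ICOS ligand, activates PI3K strongly and supports effector Tregs. The 3 genes lie on the + strand in this order, Cd28 at chr1:60746388-60773359, Ctla4 at chr1:60909025-60915832 and Icos at chr1:60960773-61000322, the last with 3 annotated starts of which the curated one, 60977914, served for distances. Regions are named by the gene and the distance of the region midpoint from its start, with a minus sign for positions before it.

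Sequence is shown for the Ctla4 promoter and for the regions in which the comparisons below gave the smallest p. The Ctla4 promoter (chr1:60908775-60909074, + strand) overlaps the accessible region at the gene's start, and the others are the central 300 bases of the region of lowest p among those lower in control eTregs (chr1:60713806-60714105), among those higher in control eTregs (chr1:60936981-60937280) and for Atg14 in eTregs (chr1:60702665-60702964). The last of these was added after its values were seen. The promoter is from RefSeq's table for GRCm38.p6, in which Ctla4 was matched and Cd28 and Icos were not, and the others are the + strand of that assembly. Capitals mark matches, on either strand, to any of 8 short motifs: TGANTCA (AP-1), GGAAA (NFAT), CCGGAA (ETS), TGTGGT (RUNX), GGGA followed after 4 bases by CC (NF-kB), TTCNNNGAA (STAT), TGTTTAC (forkhead) and CTTTGA (TCF1 and LEF1).
Ctla4 promoter: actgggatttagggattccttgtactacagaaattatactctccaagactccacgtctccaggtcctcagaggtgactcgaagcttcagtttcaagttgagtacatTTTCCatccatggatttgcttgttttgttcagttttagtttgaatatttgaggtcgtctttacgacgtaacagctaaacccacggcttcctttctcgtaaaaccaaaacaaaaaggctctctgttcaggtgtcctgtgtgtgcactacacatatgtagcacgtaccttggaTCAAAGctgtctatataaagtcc
Cd28 -32.4 kb: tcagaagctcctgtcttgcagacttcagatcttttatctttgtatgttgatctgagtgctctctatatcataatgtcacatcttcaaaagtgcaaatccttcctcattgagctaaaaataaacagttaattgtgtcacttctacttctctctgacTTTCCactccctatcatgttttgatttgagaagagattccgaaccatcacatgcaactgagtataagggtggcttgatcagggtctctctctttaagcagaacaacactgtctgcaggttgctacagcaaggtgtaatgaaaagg
Icos -40.8 kb: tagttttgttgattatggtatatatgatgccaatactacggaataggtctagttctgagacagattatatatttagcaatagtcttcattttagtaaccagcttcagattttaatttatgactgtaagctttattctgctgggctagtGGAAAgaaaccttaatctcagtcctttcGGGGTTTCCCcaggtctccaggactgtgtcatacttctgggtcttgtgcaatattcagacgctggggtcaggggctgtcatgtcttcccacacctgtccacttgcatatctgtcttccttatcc
Cd28 -43.6 kb: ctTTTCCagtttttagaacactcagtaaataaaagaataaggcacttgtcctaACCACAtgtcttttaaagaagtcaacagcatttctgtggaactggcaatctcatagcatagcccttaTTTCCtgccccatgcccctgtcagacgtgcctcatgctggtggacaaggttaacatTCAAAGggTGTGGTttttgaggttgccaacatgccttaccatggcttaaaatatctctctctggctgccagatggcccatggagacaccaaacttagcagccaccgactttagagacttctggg

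The Ctla4 promoter held 1 match to the NFAT letters and 1 to those of TCF1 and LEF1. In the Cd28 -32.4 kb region there was 1 match, to the NFAT letters. The Icos -40.8 kb region held 2 NFAT matches and 1 NF-kB match, and 1 of the NFAT matches lies inside the NF-kB match. In the Cd28 -43.6 kb region there were 2 NFAT matches, 2 RUNX matches and 1 match to TCF1 and LEF1. The NFAT letters are short and occur in 61.3% of the 32851 RefSeq promoters, and those of TCF1 and LEF1 in 16%.

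Over the 300 bases centred on each region, RUNX letters were found in 31 of the 74 regions (41.9%), against 29.4% of the 67207 regions on chromosomes. They were present in 10 of the 16 Cd28 regions (62.5%), 8 of the 24 Ctla4 regions and 13 of the 34 Icos regions. RUNX factors act throughout T cell development and with Foxp3 in Tregs. AP-1 letters were in 21.6% of the locus and 14.7% of all regions, STAT letters in 13.5% and 9.22%, NFAT letters in 74.3% and 64.5%, and TCF1 and LEF1 letters in 21.6% and 21.1%. NF-kB letters were in 5.41% of the locus and 18.4% of all regions, ETS letters in 5.41% and 10.4%, and forkhead letters in 1.35% and 4.52%. None of the 16 Cd28 regions held ETS, NF-kB, STAT or forkhead letters in this window. The locus regions had a median GC content of 44.2%, against 49.3% for all regions, and the part of base composition in these shares was not tested.

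Most regions were intergenic (46 of 74), 13 lay in introns of the trio and 1 each over the first exon of Ctla4 and an untranslated exon of Cd28. The other 13 lay within the non-coding genes 2310016D23Rik, Gm38137 and Gm34649. Between Cd28 and Ctla4 there were 23 regions, and 23 lay after Icos. Mean accessibility over the 14 libraries ranged from 1.18 to 67.1 CPM with a median of 7.55 CPM, and the 10 highest regions held 43.2% of the signal. Highest was the Ctla4 +4.5 kb region, in an intron of Ctla4, and next were the start regions of Cd28 and Ctla4. The filter on low counts left 69 regions for testing (15 of Cd28, 22 of Ctla4 and 32 of Icos). The 5 left out had means of at most 1.89 CPM.

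**Figure D1:**
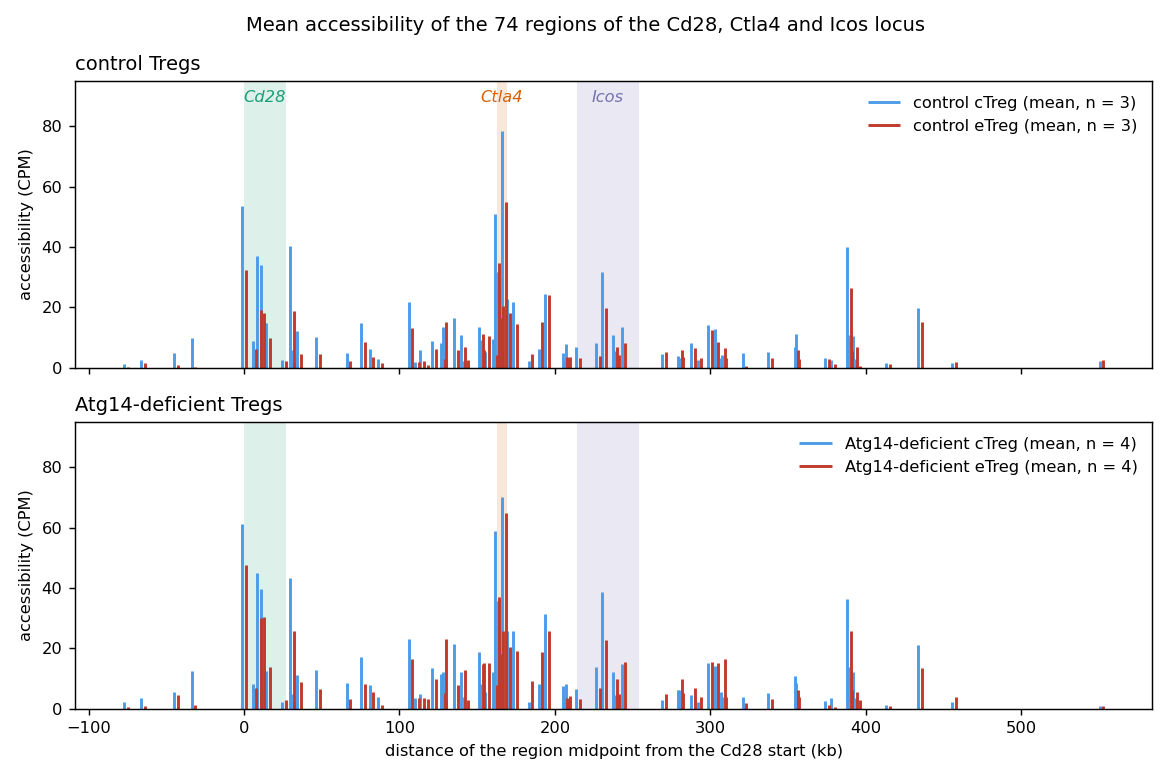
Mean accessibility in CPM (y axis) of the 74 regions against the distance of their midpoint from the Cd28 start in kb (x axis), with cTregs in blue and eTregs in red, drawn slightly to either side of the midpoint, for control (top) and Atg14-deficient cells (bottom). Shaded bands are the gene bodies; the tallest lines are the Ctla4 +4.5 kb region, at 78.4 CPM in control cTregs and 55.0 CPM in control eTregs.

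As a check of the libraries, totals lay between 2242983 and 5548189 counts, and replicates of a group differed by more than sampling noise, so no library was counted as a duplicate. The single region nearest to Foxp3, 3650 bp from its start, was accessible in every library, at 7.53 to 26.7 CPM. The promoter region of the Treg marker Ikzf2 measured 48.7 ± 7.52 CPM in control cTregs and 34.6 ± 4.56 CPM in control eTregs. That of Il2ra measured 14.1 ± 5.36 and 15.2 ± 5.88 CPM. Neither passed a threshold between these groups, and their sums lay at 60.8 to 65.1 and 44.2 to 53.0 CPM, without overlap. Among the promoter regions of cTreg markers, that of Ccr7 measured 30.2 ± 7.49 CPM in control cTregs and 11.1 ± 2.43 CPM in control eTregs, that of Tcf7 7.02 ± 1.09 and 1.68 ± 0.891 CPM, and that of Lef1 49.3 ± 3.91 and 42.5 ± 6.59 CPM. The promoter regions of the 4 eTreg markers did not pass either threshold between these groups, at 19.7 ± 2.43 and 23.6 ± 4.06 CPM for Cd44, 74.7 ± 13.3 and 70.3 ± 8.49 CPM for Tigit, 58.2 ± 9.39 and 61.1 ± 1.16 CPM for Prdm1 and 0.801 ± 0.995 and 2.79 ± 1.19 CPM for Klrg1 (SD, n = 3 each). Among markers of other cells, the promoter region of the CD8 T cell gene Cd8b1 fell from 16.1 ± 0.710 CPM in control cTregs to 4.35 ± 2.20 CPM in control eTregs (log2 fold change -1.92, adjusted p = 0.00471), and that of the NK cell gene Klrb1c measured 0.964 ± 0.957 and 1.97 ± 0.621 CPM. None of the 3 B cell markers and none of the 3 myeloid markers had an analysed region within 1000 bp of its start. The Atg14 gene held 4 tested regions and none passed the adjusted threshold for genotype in either population, and accessibility there does not check the deletion itself.

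The first comparison asked how the locus differed between the Treg states, in control cells. Accessibility was lower in eTregs over most of it, as it was at the Cd8b1 promoter region and, past neither threshold, at that of Ikzf2. The part of these markers in the result was not tested. Calls came from edgeR's quasi-likelihood test on all 61366 tested regions, and needed a log2 fold change of more than 0.5 in size together with a p under 0.05 (unadjusted threshold) or a Benjamini-Hochberg p under 0.05 (adjusted threshold). Of the 69 tested regions, 28 fell in control eTregs at the unadjusted threshold (40.6%), against 10.4% of all regions, and 2 rose (2.9%), against 7.76%. Both directions together made up 18.2% of all regions. Past the adjusted threshold 12 fell and 1 rose, against 3.29% and 2.01% of all regions (5.30% together). The median log2 fold change was -0.61 over the locus and -0.01 over all regions. In 38 of the 69 regions (55.1%) every control eTreg library lay below every control cTreg library, against 13.9% of all regions, and in 2 it lay above (2.9%), against 12.2%.

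By gene, all 15 Cd28 regions had negative fold changes, with a median of -0.93, and 11 of them fell past the unadjusted threshold, of which 6 also passed the adjusted one. For Ctla4 8 of 22 fell and 1 rose, with a median of -0.56, and for Icos 9 of 32 fell and 1 rose, with a median of -0.46. By the separation of libraries, 11 of 15 Cd28 regions (73.3%), 15 of 22 Ctla4 regions (68.2%) and 12 of 32 Icos regions (37.5%) had every control eTreg library below every control cTreg library. Differences between the genes were not tested. By position, medians were -1.69 for the 4 tested regions before Cd28, -0.62 for the 5 within Cd28, -0.77 for the 21 between Cd28 and Ctla4, -0.53 for the 4 within Ctla4, -0.70 for the 6 within Icos, -0.17 for the 8 between Ctla4 and Icos and -0.28 for the 21 after Icos. In a bulk sample, fewer cells with an open region and a less open region in each cell cannot be told apart.

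The adjusted count in control cells, from the model without pairing, was lower with each control library left out. It was 1 without control cTreg replicate 1, 4 without control cTreg replicate 3, 4 without control eTreg replicate 1, 5 without control eTreg replicate 2, 10 without control eTreg replicate 3 and 12 without control cTreg replicate 2. Over all regions the adjusted count was 3251 with every library (5.30%) and 1106 without control cTreg replicate 1 (1.80%). The share of all regions was 2.58% without control cTreg replicate 3 and 2.20%, 2.77% and 3.64% without control eTreg replicates 1, 2 and 3. Without control cTreg replicate 2 it was 6.11%. The unadjusted count of both directions, 30 with every library, stayed between 26 and 34.

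The steepest loss was upstream of Cd28. The Cd28 -32.4 kb region (chr1:60713683-60714230, intergenic) measured 11.7, 8.14 and 9.81 CPM in control cTregs and 0.651, 0 and 0.36 CPM in control eTregs. In Atg14-deficient cells it measured 10.9, 16.4, 16.8 and 5.78 CPM in cTregs and 0, 1.67, 3.18 and 0.257 CPM in eTregs. No eTreg library reached the lowest cTreg library. The log2 fold change was -4.79 ± 0.78 (SE) in control cells (adjusted p = 0.000725) and -3.26 ± 0.56 in Atg14-deficient cells (adjusted p = 0.000772). The control eTreg values rest on 4 counts in all, so the size of the fold is poorly fixed. With any library left out the adjusted p was at most 0.00683 and 0.00557.

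The Cd28 promoter region (Cd28 -0.1 kb, chr1:60746073-60746581) was open in every library. It measured 55.2, 47.9 and 57.5 CPM in control cTregs and 27.6, 36.7 and 33.2 CPM in control eTregs, with no overlap. Its log2 fold change was -0.71 ± 0.18 (adjusted p = 0.0162). In an intron of Cd28, the Cd28 +9.6 kb region fell from 36.9 ± 1.77 to 19.1 ± 2.94 CPM (SD, n = 3 each), a log2 fold change of -0.93 ± 0.22 (adjusted p = 0.0123). Behind the gene, the Cd28 +30.8 kb region fell from 40.3 ± 7.40 to 18.8 ± 0.50 CPM, by -1.09 ± 0.26 on the log2 scale (adjusted p = 0.0121). With a library left out, the adjusted p of these 3 rose to at most 0.0977, 0.0632 and 0.0795, and the call was lost in each of them without control cTreg replicate 1 or control eTreg replicate 1. Cd28 -0.1 kb lost it also without control cTreg replicate 3, and Cd28 +9.6 kb without control eTreg replicate 2.

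Next were the start regions of Ctla4 and Icos. Ctla4 +0.0 kb (chr1:60908826-60909240) measured 56.5, 47.9 and 48.6 CPM in control cTregs and 35.8, 35.2 and 33.3 CPM in control eTregs. Its log2 fold change was -0.56 ± 0.17 (adjusted p = 0.0497), a call that was lost with each single library left out (adjusted p between 0.0554 and 0.221) and with TMM normalization, DESeq2 or GC-content offsets. Icos -0.1 kb (chr1:60977659-60978044) measured 29.3, 30.2 and 36.1 CPM in control cTregs and 22.1, 21.0 and 16.2 CPM in control eTregs. Its log2 fold change was -0.69 ± 0.21, with an adjusted p just above the threshold. In neither did the groups overlap. Within Ctla4 the Ctla4 +2.0 kb region fell from 31.7 ± 6.44 to 16.4 ± 5.35 CPM (log2 fold change -0.94 ± 0.25, adjusted p = 0.0274), a call lost without control cTreg replicate 1, control cTreg replicate 3, control eTreg replicate 1 or control eTreg replicate 2, at an adjusted p of up to 0.179. The Ctla4 +4.5 kb region, the most open of all, went from 78.4 ± 3.28 to 55.0 ± 14.4 CPM, a log2 fold change of -0.50 ± 0.17 that did not pass the adjusted threshold (adjusted p = 0.0880).

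Other regions of Ctla4 and Icos that stood out lay far from the starts. Ctla4 -26.0 kb, over an exon of the non-coding gene Gm38137, fell from 16.6 ± 4.64 to 6.01 ± 2.99 CPM (log2 fold change -1.47 ± 0.38, adjusted p = 0.0219). Icos +124.6 kb fell from 11 ± 4.36 to 2.89 ± 0.965 CPM (-1.87 ± 0.46, adjusted p = 0.0154). Both lost the call without control cTreg replicate 1, control cTreg replicate 3 or control eTreg replicate 2, at an adjusted p of up to 0.117 and 0.101, the former also without control eTreg replicate 3 and the latter without control eTreg replicate 1. Icos +157.9 kb, the strongest region after Icos, went from 40.1 ± 9.02 to 26.3 ± 1.21 CPM (-0.60 ± 0.20, adjusted p = 0.0792). Not all strong regions fell: Icos -36.7 kb, in an intron of the non-coding gene Gm34649, measured 24.4 ± 3.04 CPM in control cTregs and 24.0 ± 3.82 CPM in control eTregs.

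Past the adjusted threshold 1 region went the other way. The region Icos -40.8 kb (chr1:60936920-60937343), in the same intron as Icos -36.7 kb, rose in control eTregs. It measured 4.16, 9.33 and 5.35 CPM in control cTregs and 12.4, 12.6 and 20.5 CPM in control eTregs. The groups did not overlap, and the log2 fold change was 1.26 ± 0.38 (adjusted p = 0.0439). With a library left out the call was kept only without control cTreg replicate 2, and the adjusted p reached 0.231. In Atg14-deficient cells it measured 5.04, 10.1, 5.26 and 12.2 CPM in cTregs and 16.5, 23.8, 11.9 and 23.6 CPM in eTregs, a fold change of 1.21 ± 0.32 on the log2 scale (adjusted p = 0.0167), with an eTreg library just below the highest cTreg library. That call was lost without Atg14-deficient cTreg replicate 1, Atg14-deficient cTreg replicate 3 or Atg14-deficient eTreg replicate 4, at an adjusted p of up to 0.0824.

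In Atg14-deficient cells, whose libraries are separate from those of the controls, 25 of the 69 regions fell in eTregs at the unadjusted threshold (36.2%), against 11.8% of all regions, and 6 rose (8.7%), against 11.4%, with 23.1% of all regions called in either direction. Past the adjusted threshold 15 fell and 4 rose, against 5.40% and 4.41% of all regions (9.81% together). Every Atg14-deficient eTreg library lay below every cTreg library in 15 regions and above in 3, against 8.38% and 7.13% of all regions. The median was -0.45, against 0.02 for all regions. These counts come from the model without pairing. The replicate number was also used as a block, taken to pair these libraries and fitted to the control libraries as well. With it, 25 locus regions passed the adjusted threshold in place of 19, and 15.5% of all regions did in place of 9.81%. Without the block, the count of 19 was 8 without Atg14-deficient eTreg replicate 4, 10 without Atg14-deficient cTreg replicate 3 and 12 without Atg14-deficient cTreg replicate 1, Atg14-deficient eTreg replicate 1 or Atg14-deficient eTreg replicate 3. The share of all regions fell as well, from 9.81% to 5.60%, 4.49%, 6.84%, 6.07% and 7.83% without these libraries, in the same order.

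Of the 4 regions that rose at the adjusted threshold, 3 belong to Ctla4. Ctla4 +21.7 kb (chr1:60930391-60931048, in an intron of Gm34649) measured 1.68, 2.34, 1.05 and 3.85 CPM in Atg14-deficient cTregs and 7.79, 5.02, 9 and 14.9 CPM in Atg14-deficient eTregs, without overlap. Its log2 fold change was 2.05 ± 0.48 (adjusted p = 0.00746, and 0.0506 without Atg14-deficient eTreg replicate 4), and in control cells it was 1.00 ± 0.55 (adjusted p = 0.319). Ctla4 -6.3 kb, named after its values were seen, went from 5.47 ± 1.6 to 15 ± 3.22 CPM (1.46 ± 0.35, adjusted p = 0.00874) and Ctla4 -33.6 kb, also named afterwards, changed by 0.93 ± 0.25 on the log2 scale (adjusted p = 0.0183). Between Cd28 and Ctla4 more regions fell than rose at the adjusted threshold, 6 against 2 of 21. Among those that fell was Ctla4 -34.4 kb, next to Ctla4 -33.6 kb and also named after its values were seen (-1.09 ± 0.34, adjusted p = 0.0359).

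The start regions of Ctla4 and Icos and the Ctla4 intron fell in these cells as well. Ctla4 +0.0 kb went from 58.9 ± 10.5 to 37.2 ± 4.83 CPM (SD, n = 4 each), a change of -0.66 ± 0.15 on the log2 scale (adjusted p = 0.00494). Icos -0.1 kb went from 38.8 ± 7.41 to 22.9 ± 2.67 CPM (-0.75 ± 0.18, adjusted p = 0.00895). Ctla4 +2.0 kb changed by -1.0 ± 0.22 (adjusted p = 0.00508) and Ctla4 -26.0 kb by -1.49 ± 0.33 (adjusted p = 0.00451). The Cd28 promoter changed less than in control cells, by -0.36 ± 0.15 (adjusted p = 0.120), and whether the change differed with genotype is given by the interaction below. With the replicate number as a block, 3 further named regions passed the adjusted threshold: Ctla4 -9.6 kb (0.90, adjusted p = 0.0177), Icos +124.6 kb (-1.10, adjusted p = 0.0296) and Icos +157.9 kb (-0.50, adjusted p = 0.0213).

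**Figure D2:**
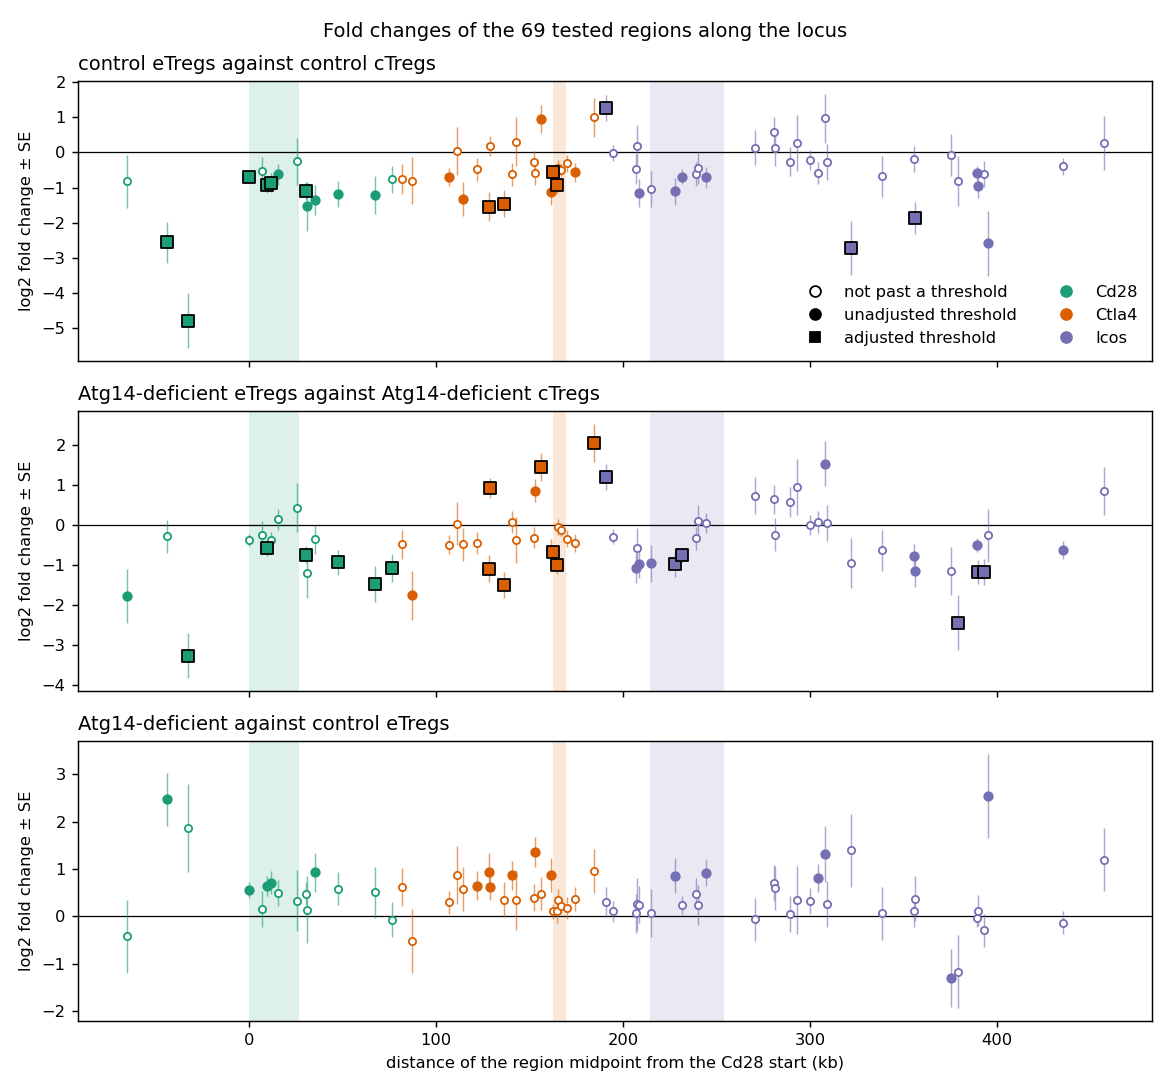
Log2 fold change with its SE (y axis) of the 69 tested regions against distance from the Cd28 start in kb (x axis) for control eTregs against cTregs (top), Atg14-deficient eTregs against cTregs (middle) and Atg14-deficient against control eTregs (bottom). Colours give the gene, open circles regions past neither threshold, filled circles the unadjusted and squares the adjusted threshold, and bands the gene bodies; in the top panel 28 regions fell and 2 rose, and in the bottom panel 16 rose and 1 fell, none past the adjusted threshold.

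The second comparison asked what loss of Atg14 did within eTregs. Accessibility was higher in Atg14-deficient eTregs over much of the locus, though no single region passed the adjusted threshold. Past the unadjusted threshold 16 of the 69 regions rose (23.2%), against 4.59% of all regions, and 1 fell (1.45%), against 1.77%. Past the adjusted threshold the count was 0 of 69 by edgeR, against 0.0228% of all regions (0.0212% higher and 0.00163% lower). It was also 0 by the DESeq2 Wald test, against 0.0782% of all regions. The median log2 fold change was 0.35 over the locus and 0.06 over all regions, and 60 of the 69 fold changes were positive, against 34480 of 61366 over all regions. In 12 regions (17.4%) every Atg14-deficient eTreg library lay above every control eTreg library, against 4.97% of all regions, and in 2 (2.9%) below, against 3.51%.

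By gene, 5 of 15 Cd28 regions rose, 6 of 22 Ctla4 regions and 5 of 32 Icos regions, and the region that fell, Icos +143.8 kb, belongs to Icos. Median log2 fold changes were 0.51, 0.44 and 0.25. By position, the 16 were 2 of the 4 tested regions before Cd28 (median 1.2), 2 of 5 within Cd28 (0.49), 7 of 21 between Cd28 and Ctla4 (0.58), 2 of 6 within Icos (0.36) and 3 of 21 after Icos (0.26). Neither the 4 regions within Ctla4 nor the 8 between Ctla4 and Icos held a called region, and their medians were 0.17 and 0.25. Without control eTreg replicate 1, which had the lowest Cd28 sum of all libraries, the count of called regions was 8 in place of 17, and the share over all regions was 4.65% in place of 6.36%. It stayed between 12 and 18 with any other eTreg library left out.

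This comparison and that of control eTregs with control cTregs use the same 3 control eTreg libraries, so a low value in them moves both. The comparison of Atg14-deficient eTregs with Atg14-deficient cTregs does not use them.

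Lowest p for the genotype in eTregs was at Cd28 -43.6 kb (chr1:60702655-60702975, intergenic). It measured 0.651, 0.525 and 1.08 CPM in control eTregs and 3.00, 5.86, 3.18 and 6.16 CPM in Atg14-deficient eTregs. In cTregs it measured 6.60, 3.35 and 4.46 CPM in controls and 5.88, 6.23, 3.68 and 6.42 CPM without Atg14. Control eTregs thus stood apart from the other 3 groups, which overlapped. The log2 fold change for genotype was 2.47 ± 0.55 in eTregs (adjusted p = 0.176) and 0.19 ± 0.45 in cTregs, and the change from cTregs to eTregs was -2.56 ± 0.57 in controls (adjusted p = 0.00822, and 0.0684 without control cTreg replicate 1) and -0.28 ± 0.42 without Atg14. The difference of the genotype effects was 2.28 ± 0.71 (95% interval 0.88 to 3.67), past the unadjusted threshold only. Control eTregs held 10 counts here in all.

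Ctla4 -9.6 kb (chr1:60899224-60899682, intergenic) had another pattern, with Atg14-deficient eTregs above control eTregs and nearly all cTregs. It measured 5.86, 5.25 and 6.49 CPM in control eTregs and 12, 15.1, 16.9 and 16.4 CPM in Atg14-deficient eTregs. In cTregs the values were 6.84, 8.86 and 11.6 CPM in controls and 5.04, 7.79, 7.89 and 12.2 CPM without Atg14, so that a single cTreg library reached the lowest Atg14-deficient eTreg library. The log2 fold change for genotype was 1.36 ± 0.32 in eTregs (adjusted p = 0.227) and -0.10 ± 0.32 in cTregs. Their difference was 1.46 ± 0.45 (95% interval 0.58 to 2.34), past the unadjusted threshold only. From cTregs to eTregs the region changed by -0.60 ± 0.34 in controls and 0.86 ± 0.29 without Atg14 (adjusted p = 0.345 and 0.0522).

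The Cd28 promoter region measured 27.6, 36.7 and 33.2 CPM in control eTregs and 56.3, 41.0, 51.9 and 41.1 CPM in Atg14-deficient eTregs. These do not overlap, and the 2 higher Atg14-deficient libraries lie within the range of control cTregs. The log2 fold change was 0.55 ± 0.17 (adjusted p = 0.373), past the unadjusted threshold. It was 0.50 with TMM normalization, 0.45 with GC-content offsets and 0.45 or 0.46 without control eTreg replicate 1 or Atg14-deficient eTreg replicate 1, each below the fold-change limit. In cTregs it was 0.20 ± 0.16, and the difference of the genotype effects was 0.35 ± 0.23, past neither threshold. The intronic Cd28 +9.6 kb region measured 17.6, 17.3 and 22.5 CPM in control eTregs and 40.7, 30.1, 30.2 and 19.5 CPM in Atg14-deficient eTregs, with overlap. Its log2 fold change was 0.64 ± 0.21 (adjusted p = 0.450), and 0.45 without Atg14-deficient eTreg replicate 1. The Cd28 +30.8 kb region gave 0.47 ± 0.25 (adjusted p = 0.649) and passed neither threshold.

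At the starts of Ctla4 and Icos no genotype difference was detectable. Ctla4 +0.0 kb measured 35.8, 35.2 and 33.3 CPM in control eTregs and 44.0, 33.5, 37.1 and 34.2 CPM without Atg14, a log2 fold change of 0.10 with a 95% interval of -0.22 to 0.42. Icos -0.1 kb measured 22.1, 21.0 and 16.2 CPM and 24.6, 19.2, 22.5 and 25.2 CPM, a log2 fold change of 0.23 with an interval of -0.17 to 0.62. The Ctla4 +4.5 kb region gave 0.22 with an interval of -0.10 to 0.54. In all 3 the groups overlapped.

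Within Icos, an intronic region did rise. Icos +12.7 kb (chr1:60990146-60991010) measured 7.81, 9.97 and 7.03 CPM in control eTregs and 17.4, 14.2, 11.9 and 18.5 CPM in Atg14-deficient eTregs, without overlap, and 12.5 to 14.9 CPM in control cTregs. The log2 fold change was 0.91 ± 0.28 (adjusted p = 0.373), and the difference from the effect in cTregs was 0.76 ± 0.38, past neither threshold. From cTregs to eTregs it changed by -0.71 ± 0.29 in controls (adjusted p = 0.162) and 0.05 ± 0.25 without Atg14. Far behind Icos, Icos +163.6 kb (chr1:61141465-61141659) measured 0, 0.525 and 0.721 CPM in control eTregs and 2.1, 6.28, 0.529 and 3.08 CPM without Atg14, with overlap. In cTregs it measured 2.93, 2.87 and 3.12 CPM in controls, all above control eTregs, and 0.789 to 5.88 CPM without Atg14. Its log2 fold change for genotype was 2.55 ± 0.89 (adjusted p = 0.460), and the change from cTregs to eTregs was -2.59 ± 0.92 in controls (adjusted p = 0.0957) and -0.25 ± 0.67 without Atg14. The difference from the effect in cTregs was 2.33 ± 1.14 (95% interval 0.10 to 4.56). It rests on 6 counts in control eTregs.

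The third comparison was that of Atg14-deficient with control cTregs. Past the unadjusted threshold 2 of 69 regions rose (2.9%), against 1.99% of all regions, and none fell, against 1.35% (3.34% together), so the locus was near the background. No region passed the adjusted threshold by edgeR, against 0.0163% of all regions (0.0147% higher and 0.00163% lower), or by the DESeq2 Wald test, against 0.0261%. The groups did not overlap in 1 region, with Atg14-deficient cTregs above, against 3.05% of all regions above and 2.45% below. The median was 0.20, against 0.03 for all regions. The 2 regions were Icos -3.6 kb, in an intron before the curated Icos start, and Ctla4 -40.4 kb, over an exon of Gm38137. Icos -3.6 kb measured 11.5, 6.70 and 6.24 CPM in control cTregs and 15.1, 17.5, 8.94 and 13.5 CPM without Atg14, with overlap (log2 fold change 0.72 ± 0.33). Ctla4 -40.4 kb measured 9.04, 8.14 and 9.36 CPM against 13.4, 11.7, 11.6 and 17.3 CPM, without overlap (0.61 ± 0.30). In eTregs the same regions gave 0.85 ± 0.37 and 0.64 ± 0.30. Without control cTreg replicate 3 the count was 0, without Atg14-deficient cTreg replicate 4 it was 1 and without control cTreg replicate 1 it was 4, of which 2 fell. The share of all regions was then 3.35%, 4.08% and 3.31%, in the same order.

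Whether the genotype effect differed between the states was tested directly. Past the unadjusted threshold 3 of 69 regions had a larger effect in eTregs (4.35%), against 1.90% of all regions, and none a smaller one, against 1.14% (3.05% together). They were Ctla4 -9.6 kb, Cd28 -43.6 kb and Icos +163.6 kb. The count was 6 without Atg14-deficient cTreg replicate 4 or control eTreg replicate 3, 5 without Atg14-deficient eTreg replicate 3 and between 2 and 4 without any other library. The share of all regions was 4.03%, 3.25% and 3.2% without the libraries named, in that order. None passed the adjusted threshold, here or among all 61366 regions. The median difference was 0.27, against 0.03 for all regions. For the start regions of Cd28, Ctla4 and Icos it was 0.35 (95% interval -0.11 to 0.80), -0.11 (-0.55 to 0.33) and -0.06 (-0.61 to 0.48).

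**Figure D3:**
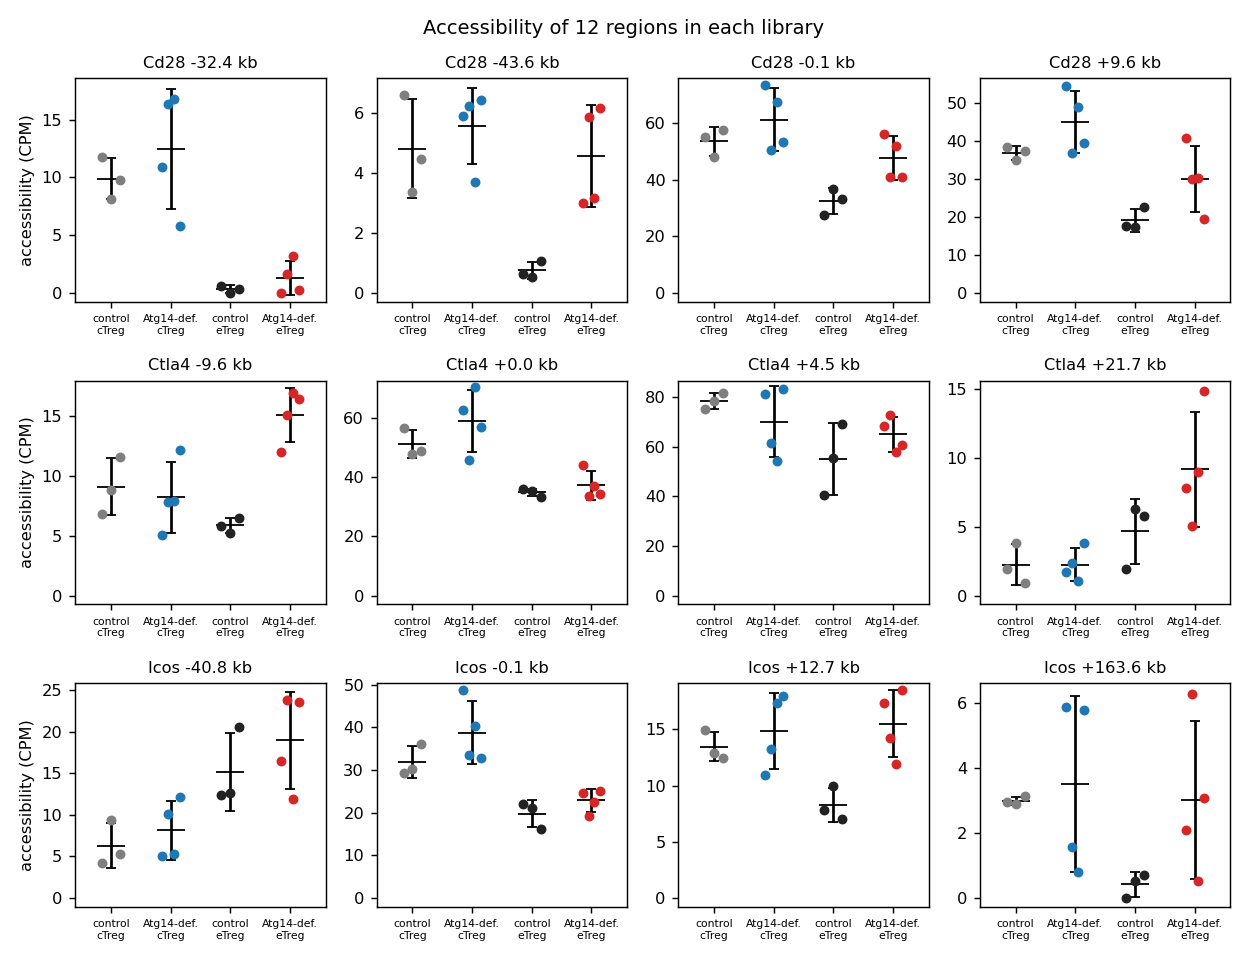
Accessibility in CPM (y axis) of 12 named regions in each library, by group (x axis); points are libraries, horizontal marks the mean and error bars the SD (n = 3 for controls, 4 for Atg14-deficient groups). Control eTregs are apart from the other groups at Cd28 -43.6 kb, with at most 1.08 CPM, and Atg14-deficient eTregs are highest at Ctla4 -9.6 kb, with at least 12 CPM.

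Summed over its regions, each gene showed the same order of group means: Atg14-deficient cTregs, control cTregs, Atg14-deficient eTregs, control eTregs. The sums are given as a description, with no test. Cd28 summed to 261, 231 and 280 CPM in control cTregs, 327, 267, 332 and 236 CPM in Atg14-deficient cTregs, 110, 142 and 141 CPM in control eTregs and 230, 180, 207 and 159 CPM in Atg14-deficient eTregs. The eTreg groups did not overlap with each other, nor with their own cTregs, while the cTreg groups overlapped. The mean in control eTregs was 0.51 of that in control cTregs, and the mean in Atg14-deficient eTregs was 1.48 times that in control eTregs.

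Ctla4 summed to 394, 349 and 376 CPM in control cTregs, 465, 353, 418 and 407 CPM in Atg14-deficient cTregs, 235, 259 and 293 CPM in control eTregs and 359, 343, 330 and 350 CPM in Atg14-deficient eTregs. Control eTregs were lowest with no overlap, and Atg14-deficient eTregs overlapped with both cTreg groups. Icos summed to 306, 281 and 321 CPM, 342, 326, 344 and 340 CPM, 219, 229 and 231 CPM and 295, 268, 239 and 310 CPM in the same order of groups. Again control eTregs lay below all others. Between Atg14-deficient and control eTregs the ratio of means was 1.32 for Ctla4 and 1.23 for Icos, and between Atg14-deficient and control cTregs it was between 1.10 and 1.13 for the 3 genes.

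**Figure D4:**
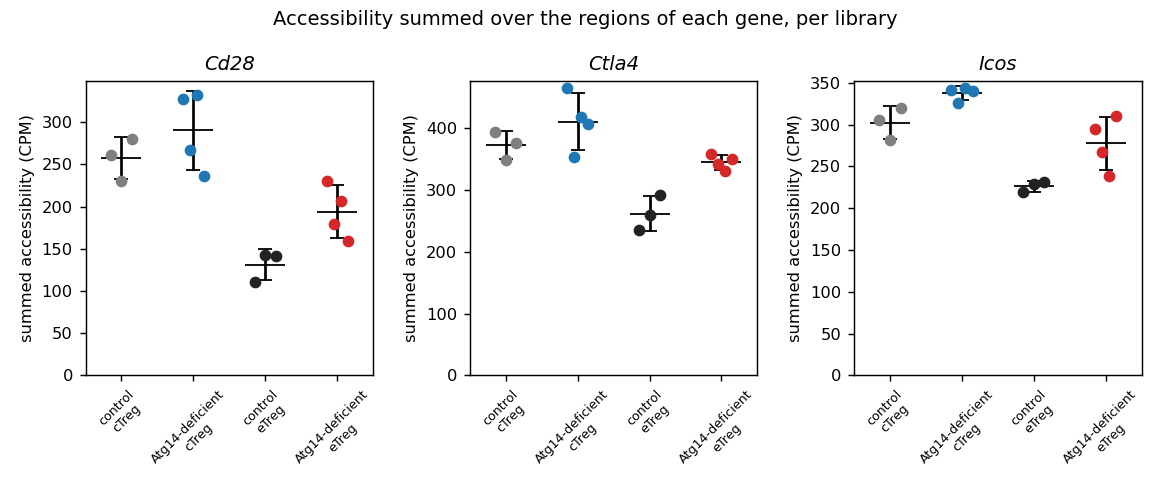
Accessibility summed over the regions of Cd28 (16), Ctla4 (24) and Icos (34), in CPM (y axis), per library and group (x axis); points are libraries, horizontal marks means and error bars the SD. For each gene the 3 control eTreg libraries are lowest, for Cd28 at 110 to 142 CPM against 159 to 230 CPM in Atg14-deficient eTregs.

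Markers of the states were read beside the genotype result in eTregs. The promoter region of the cTreg marker Ccr7 passed the unadjusted threshold, at 11.1 ± 2.43 CPM in control and 19.5 ± 4.67 CPM in Atg14-deficient eTregs (log2 fold change 0.78, adjusted p = 0.475). Those of Lef1 and Tcf7 gave 0.20 and -0.02 and passed neither threshold. Promoters of the eTreg markers Cd44, Tigit, Prdm1 and Klrg1 summed to 153 to 164 CPM in control and 161 to 191 CPM in Atg14-deficient eTregs. Cd8b1, a CD8 T cell gene, was at 4.35 ± 2.20 and 4.94 ± 2.27 CPM, and the NK gene Klrb1c at 1.97 ± 0.621 and 3.31 ± 2.04 CPM. Promoters of the Treg markers Il2ra and Ikzf2 summed to 44.2 to 53.0 CPM in control and 62.6 to 69.9 CPM in Atg14-deficient eTregs, without overlap. Most of this came from Ikzf2, at 34.6 ± 4.56 and 49.0 ± 2.39 CPM, while Il2ra was at 15.2 ± 5.88 and 18.1 ± 3.64 CPM. Neither passed a threshold alone. The part of the state and Treg markers in the locus result was not tested.

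Other genes of the pathway were described by the regions nearest to them. For genotype in eTregs, where 4.59% of all regions rose and 1.77% fell, 24 of 277 regions at the signalling genes below CD28 and ICOS, such as Lck and Prkcq, rose (8.66%) and 1 fell, with a median of 0.24. At the other costimulatory and coinhibitory receptors, such as Tigit, Tnfrsf18 and Tnfrsf4, 11 of 136 rose (8.09%) and none fell, with a median of 0.25. The regions that rose were 3 at Cd6, 3 at Slamf6, 2 at Lag3 and 1 each at Cd2, Cd5 and Tigit, with 0 at Tnfrsf18 and Tnfrsf4. The CD28 family members Pdcd1 and Btla had 0 of 22 regions called, with a median of 0.11, the ligands 3 of 31, all higher (9.68%), with a median of 0.07, and the CTLA-4 trafficking genes, such as Lrba, 3 up (6%) and 1 down of 50, with a median of 0.09. No region of these lists passed the adjusted threshold. Between control eTregs and control cTregs, where 10.4% of all regions fell and 7.76% rose, 16 of 50 regions at the trafficking genes fell (32.0%) and 4 rose, with a median of -0.43. Of those that fell, 12 were at Trat1, which has 23 of the regions, 3 at Ap1m1 and 1 at Lrba. Those that rose were 2 at Lrba and 2 at Arf1. At the signalling genes 54 of 277 fell (19.5%) and 14 rose, and at the other receptors 27 of 136 fell (19.9%) and 10 rose, with a median of -0.23 in both. At the ligands 5 of 31 fell and 5 rose, with a median of 0.04, and at Pdcd1 and Btla 4 of 22 fell and 2 rose, with a median of -0.17.

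**Figure D5:**
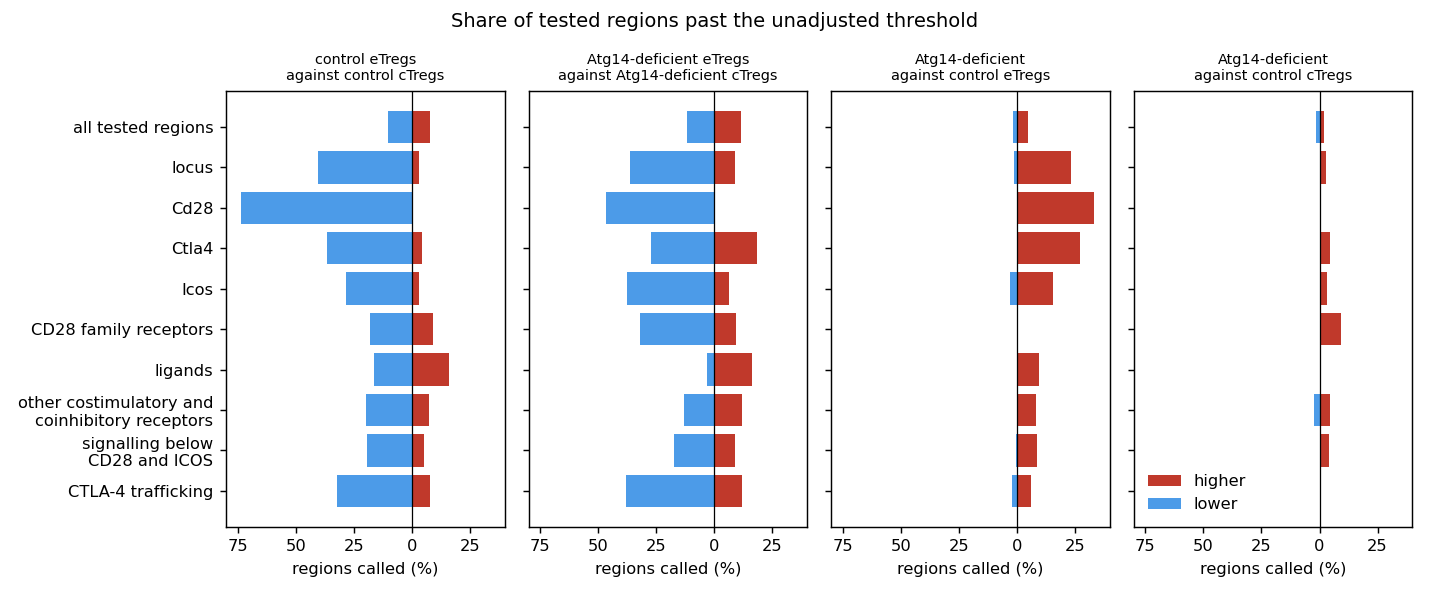
Share of tested regions past the unadjusted threshold in percent (x axis, higher in red to the right, lower in blue to the left) for all tested regions, the locus, its genes and the pathway lists (y axis), in 4 comparisons. For Atg14-deficient against control eTregs the locus share that rose is 23.2%, against 4.59% of all regions.

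The genes whose summed accessibility was most like that of the trio over the 14 libraries were sought among 9463 protein-coding genes on other chromosomes, by Pearson's r of the log2 sums. For Cd28 they were Prkcq (r = 0.96), which encodes the kinase PKC-theta, Mbnl1 (0.96), a splicing regulator, and Cd69 (0.95), an activation marker. For Ctla4 they were Klf2 (0.96), a factor of quiescence and migration, Mbnl1 (0.95) and B3galt4 (0.95). For Icos they were Klf2 (0.95), Prn (0.94) and Myb (0.93). Prkcq summed to 395 ± 22.8 CPM in control cTregs, 475 ± 51.6 in Atg14-deficient cTregs, 261 ± 6.78 in control eTregs and 320 ± 38.4 in Atg14-deficient eTregs. The trio correlated among itself at 0.85 to 0.91. All points share the library and its scaling and fall into the 2 states, so these values describe likeness only.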

How the data were processed

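The authors aligned paired-end ATAC-seq reads, removed duplicates, shifted read ends for the transposase and called peaks per library with MACS2. The table's regions are the union of peaks that recurred across replicates under a 50% rule. The deposited values are each library's raw counts of nucleosome-free reads in them, whole numbers without normalization, of which 81.4% are even. Per the labels' processing notes the tools include cutadapt 1.9, Picard 1.65 and MACS2 2.1.0.20150603 and the build is mm10 (GRCm38). The paper's methods name mm9, another Picard version and also MACS2. All 67207 regions on chromosomes lie within GRCm38, which was used with RefSeq's annotation.

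Counts were analysed with edgeR 4.0.16 (R 4.3.3), scaled by total counts, after edgeR's filter on low counts, in 1 quasi-likelihood model with robust estimation over 4 groups and 14 libraries, with Benjamini-Hochberg adjustment over 61366 regions. The SE is the fold change over the square root of F, and intervals are 1.96 SE to either side. DESeq2 1.42.0, other scalings, filters and replicate blocks and each library left out served as alternatives. The steps were tested on simulated data. The biological coefficient of variation was 25.6%, and depth (2242983 to 5548189 counts) leaves regions under about 5 CPM imprecise.

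Named regions were those at the gene starts, the 3 highest per gene, up to 5 of smallest p past the unadjusted threshold per contrast, and the region of smallest p among those higher in control eTregs. The members and lists were chosen with earlier results of these data known, and values of some listed genes are not reported here. Deviations of same-numbered Atg14-deficient eTreg and cTreg libraries correlated at 0.12 to 0.24, so the number was taken to pair these libraries.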

Additional observations from a re-analysis of the deposited data

Results flagged for a closer look

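The genotype effect was larger in eTregs than in cTregs at 3 of 69 locus regions (4.35%, against 1.90% of all regions) by the test of the difference itself, past the unadjusted threshold and not after adjustment over all regions. These regions were named for having the smallest p in that test. The difference of the log2 fold changes was 2.28 at Cd28 -43.6 kb (1.95 to 2.69 with a library left out), 1.46 at Ctla4 -9.6 kb (1.27 to 1.71) and 2.33 at Icos +163.6 kb (1.75 to 2.96). Icos +163.6 kb lost its call with most single libraries left out. Cd28 -43.6 kb and Icos +163.6 kb rest on 10 and 6 counts in control eTregs.

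At Ctla4 +2.0 kb, Atg14-deficient eTreg replicate 4 stood apart from its group, at 11.3 CPM against 19.3 to 20.9 CPM in the other 3 libraries. Of 46 groups of 4 libraries examined this was the only one to stand apart, and chance alone gives about 1 in 20.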

How the results depend on the processing

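Counts of called locus regions kept their direction and stayed within 1.5 times for most alternatives, and the exceptions follow. For genotype in eTregs (17 unadjusted calls) a log2 limit of 1 gave 5, and taking as members only regions nearest to the trio among all annotated genes (21 tested) gave 6. With a library left out it was 8 to 18. For genotype in cTregs (2 calls) TMM, DESeq2 size factors, loess offsets, GC-content offsets, the replicate block with GC-content offsets and the narrower membership each gave 1, with loess offsets a lower one, a minimum of 10 counts in every library gave 4 and the limit of 1 gave 0, with 0 to 4 by library. For the difference of genotype effects (3 calls) the minimum of 10 counts gave 1, the replicate block 5, the block with GC-content offsets 6 and the narrower membership 0, with 2 to 6 by library. The minimum of 10 counts left 37 locus regions for testing. In control cells between states the unadjusted 30 calls became 19 of these 37 with that minimum, 17 with the limit of 1 and 11 with the narrower membership. The share of all regions was 16.9% with the minimum, in place of 18.2%. The adjusted 13 became 22 with the replicate block, 8 with the limit of 1 and 5 with the narrower membership, with 1 to 12 by library. In Atg14-deficient cells the unadjusted 31 became 18, 16 and 8 under the same 3 alternatives, the 18 again of 37 and against 22.4% of all regions in place of 23.1%. The adjusted 19 became 11 with the limit of 1 and 5 with the narrower membership, with 8 to 22 by library. The cause of these differences was not tested, except that fewer regions entered with the minimum of 10 counts and the narrower membership and the limit of 1 is stricter by construction.

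Same-numbered control eTreg and cTreg libraries (r = 0.05 to 0.21) and same-numbered libraries of the 2 genotypes (r = -0.22 to 0.09) were taken to share a number only, since the labels do not tie numbers to animals. For the states of control cells the block raised the adjusted share of all regions to 10.4%. With the replicate block, the count for genotype in eTregs was 15. In Atg14-deficient cells, where the number was taken to pair the libraries though the labels do not say so, the adjusted count was 25. The genotype change at Ctla4 +0.0 kb in eTregs was -0.0011 with GC-content offsets, and the difference of genotype effects at Icos -0.1 kb lay between -0.20 and 0.060 with a library left out; neither was called. No scaling moved the median of all regions by more than 0.1. Depth limits the regions with few counts in control eTregs most.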
